A study of Mus musculus with 9 samples.

Results

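The genes described here are 10 early response factors, *Egr1*, *Egr2*, *Egr3*, *Nr4a1*, *Nr4a2*, *Nr4a3*, *Klf2*, *Klf4*, *Klf6* and *Ier2*. They were chosen by name, and each matched 1 of the 56748 genes in the count table of 9 RNA-seq libraries. HSCs were sorted from bone marrow of female C57BL/6 mice as lineage-negative Sca-1+ Kit+ cells that were CD48- and CD150+. The yHSCs came from mice of 6 to 10 weeks, and the pre-aged HSCs (paHSCs) from mice of 14 to 16 months, which were split by surface P-selectin into Selp low and Selp high fractions, with 3 libraries in each of the 3 groups. The labels give no transgene or treatment for any group, and the number of mice and of cells behind a library was not given in the sources used here, so p-values measure the spread between these libraries. Levels are CPM, read counts divided by library size after edgeR's TMM scaling, and a gene was called where edgeR's quasi-likelihood test gave a Benjamini-Hochberg adjusted p of 0.05 or less and a log2 fold change of 1 or more in size.

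These genes belong to the immediate early class, whose transcription is switched on within minutes of a signal from existing activators and without new protein synthesis, and whose mRNAs are short-lived. The Egr proteins are zinc finger factors that bind GC-rich sites and are held in check by the Nab corepressors, and the Nr4a proteins are orphan nuclear receptors that act without a known hormone. The Klf proteins are zinc finger factors of GC-rich and CACCC sites that are linked to quiescence and trafficking of blood cells, and *Ier2* encodes a small nuclear protein of the same class. Egr1 and the Nr4a receptors are known in HSCs as genes of the quiescent state, and the class as a whole is known to be induced when tissue is dissociated and cells are sorted.

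The libraries held 24866975 to 35375310 counts on genes. In Selp low replicate 2 the 10 largest genes took 44.78% of counts, against 3.90 to 20.95% elsewhere. Its TMM factor was 0.544, against 0.785 to 1.224 elsewhere, so its CPM are raised over those scaled by library totals. All 9 HSC markers examined, among them *Kit*, *Procr*, *Hlf* and *Fgd5*, were detected in every library. Their summed level was 1017 to 2272 CPM in yHSC, 795.5 to 1486 in Selp low and 2123 to 3062 in Selp high libraries. Of the 9, 8 were higher in the Selp high than the Selp low fraction, as were 9120 of 20370 genes tested. Their median log2 fold change was 1.53, against -0.11 for all genes. The mean *Selp* level was 24.6 CPM in yHSCs, 77.2 in Selp low and 393.7 in Selp high paHSCs. Markers of other blood cells were also present. Neutrophil markers summed to 212662 CPM in replicate 3 of Selp low, 64913 in replicate 1 of yHSC and 542.4 to 41876 in the other 7 libraries, plasma cell markers to 98738 CPM in Selp low replicate 2 against 32.5 to 3226 elsewhere, and B cell markers to 5227 and 7395 CPM in Selp low replicates 1 and 2 against 50.3 to 436.9 elsewhere. T and NK cell markers summed to 356.6 to 956.1 CPM in Selp low, 73.1 to 120.6 in Selp high and 90.8 to 121.4 in yHSC libraries. Megakaryocyte markers were highest in Selp high replicate 2, at 5664 CPM, against 104.3 to 3509 elsewhere, and endothelial markers summed to 229.1 to 443.3 CPM in Selp high, 45.6 to 96.4 in Selp low and 91.1 to 213.1 in yHSC libraries. The part of these cells in the differences described here was not tested. These are bulk samples, in which fewer cells of a type and less RNA per cell cannot be told apart.

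The sequence just before the transcription start is shown for 4 members, because the 3 Nr4a genes each hold the same short motif at 4 places and *Egr2* carries it beside a site of another factor. RefSeq promoter windows were matched for 7 of the 10 members (11 windows, build GRCm38.p6) and not for *Egr1*, *Egr3* and *Ier2*. Capitals mark the core of the cAMP response element (TGACG, or CGTCA on the other strand), which CREB proteins bind, and in *Egr2* also a CArG box, the site of serum response factor. The windows lie at chr15:101266596-101266845 (+ strand, *Nr4a1*), chr2:57124004-57124253 (- strand, *Nr4a2*), chr4:48045055-48045152 (+ strand, *Nr4a3*, without the last 152 bases, which are exon of another transcript) and chr10:67537619-67537868 (+ strand, *Egr2*), and each is written 5′ to 3′ along the gene.
Nr4a1: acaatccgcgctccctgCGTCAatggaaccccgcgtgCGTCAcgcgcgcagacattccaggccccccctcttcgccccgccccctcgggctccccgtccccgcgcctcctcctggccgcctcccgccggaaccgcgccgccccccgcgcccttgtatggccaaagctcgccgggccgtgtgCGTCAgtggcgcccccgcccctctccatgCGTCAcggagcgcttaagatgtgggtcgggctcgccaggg
Nr4a2: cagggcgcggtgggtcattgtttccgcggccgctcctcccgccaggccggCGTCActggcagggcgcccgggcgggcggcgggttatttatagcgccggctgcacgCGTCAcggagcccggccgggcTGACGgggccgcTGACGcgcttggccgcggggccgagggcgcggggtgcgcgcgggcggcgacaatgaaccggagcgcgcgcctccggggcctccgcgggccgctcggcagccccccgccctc
Nr4a3: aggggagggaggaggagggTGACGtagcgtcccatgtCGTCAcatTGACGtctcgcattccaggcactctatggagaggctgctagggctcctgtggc
Egr2: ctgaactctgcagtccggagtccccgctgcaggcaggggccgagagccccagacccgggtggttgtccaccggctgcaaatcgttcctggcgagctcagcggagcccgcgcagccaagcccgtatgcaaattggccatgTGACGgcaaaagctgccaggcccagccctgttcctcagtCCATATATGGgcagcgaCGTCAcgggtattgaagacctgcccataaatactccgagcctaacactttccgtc

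The 250 bases before the start held 4 cores in each of *Nr4a1*, *Nr4a2* and *Nr4a3*, of which 3 are printed for *Nr4a3*. In *Nr4a1* they began 233, 213, 69 and 40 bases before the start, and in *Nr4a2* 200, 144, 123 and 111 bases before it. Of 32536 mouse promoter windows of this length, 17.9% held at least 1 core on either strand. *Egr2* held 2 cores, 111 and 55 bases before the start of the window printed, with the CArG box at 72 bases, a site found in 1.48% of all windows. Windows of other *Egr2* starts differed. That at chr10:67535249-67535498 held 0 cores and 0 CArG boxes, and that at chr10:67537316-67537565 held 0 cores and 1 CArG box. The remaining *Egr2* windows overlapped the printed one and held 2 cores and 1 CArG box each. *Klf2* and *Klf4* each held 1 core and *Klf6* held 0. The Egr site GCGNGGGCG, present in 4.74% of windows, occurred once in each of the *Nr4a1*, *Nr4a2* and *Klf2* windows and at 2 places in *Klf4*, and none of the 11 windows held the Nr4a site AAAGGTCA (1.35% of windows), the full element TGACGTCA (1.56%) or the AP-1 site TGANTCA (6.73%). These matches overlap in part, since the full element holds 2 cores and GC-rich windows hold GC-rich sites more often, and a match is a description of letters.

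Per unit of gene length, the members formed an abundant and a scarce set. Mean levels over the 9 libraries, in FPKM computed from the TMM-scaled counts and the deposited gene lengths, ran in the order *Ier2* (779.6), *Egr1* (317.9), *Nr4a1* (252.4), *Klf2* (156.0), *Klf6* (137.0), *Nr4a2* (5.57), *Klf4* (4.09), *Egr2* (3.15), *Egr3* (1.43) and *Nr4a3* (0.154). *Klf6* (44.7 to 324 FPKM over the libraries) and *Nr4a2* (1.85 to 13.1) were the only neighbours in this order whose ranges did not overlap. Each of the 5 abundant members exceeded each of the 5 scarce ones within every library. Ranked by mean FPKM among all genes of the table, *Nr4a1* had rank 31 in yHSCs, 537 in Selp low and 1005 in Selp high paHSCs, while *Ier2* had ranks 18, 76 and 37.

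**Figure D1:**
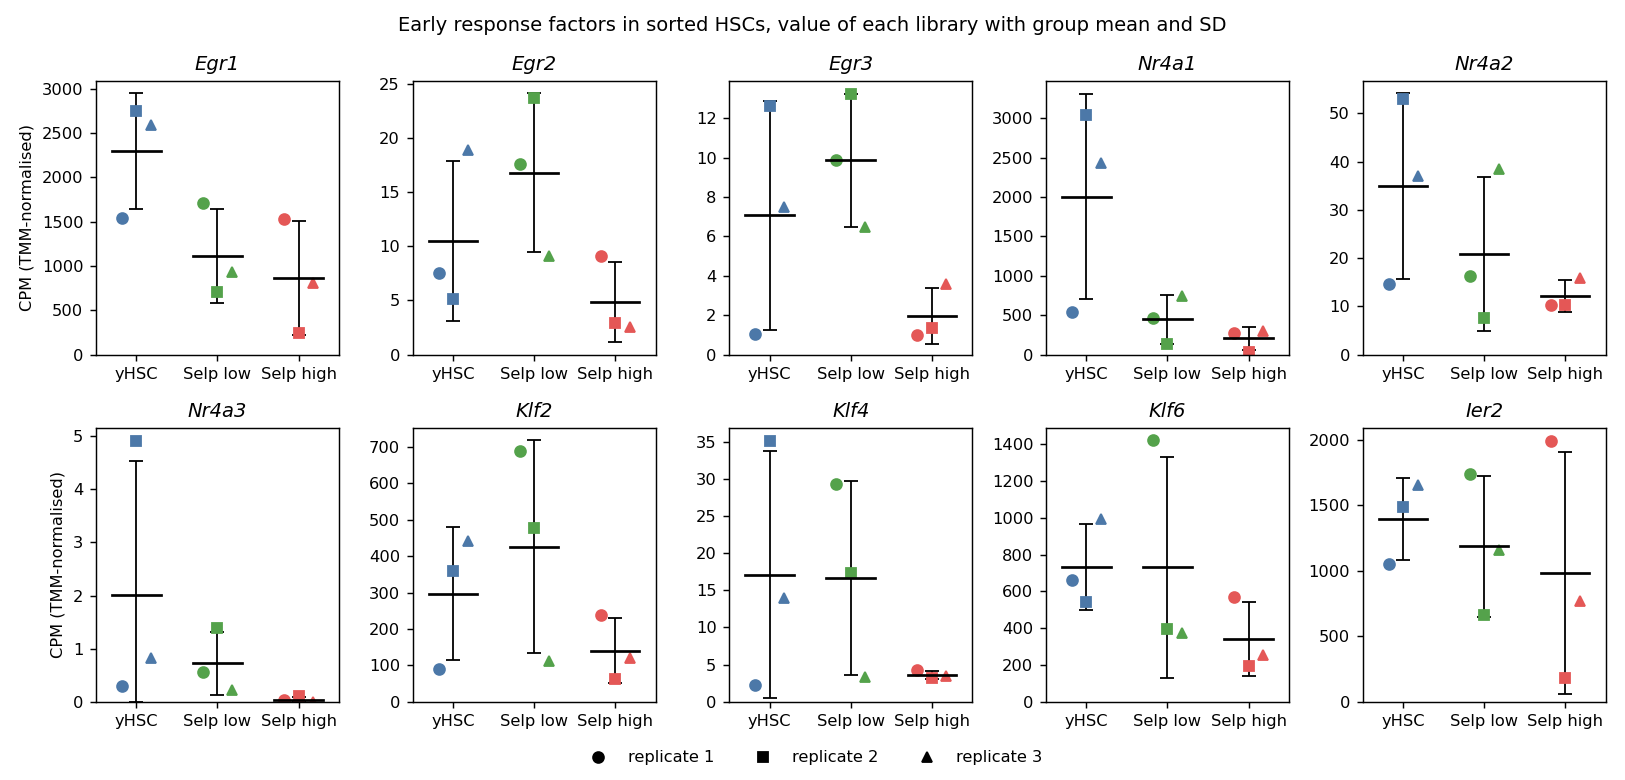
CPM (TMM-scaled, linear axis starting at 0, a scale for each gene) of the 10 members in each library; the shape of a point gives the replicate number, the bar the group mean and the whiskers 1 SD (n = 3), which are not drawn below 0. Selp high libraries lie low for most members, and the spread within yHSCs and Selp low paHSCs is wide. Selp high libraries do not overlap with Selp low for Egr3, as for 10.7% of genes tested in this direction. They do not overlap with yHSCs for Egr1 and Nr4a1, as for 5.28% of genes. Nr4a3 also lies apart from both groups, but did not pass the filter against Selp low and passed it against yHSCs through the yHSC libraries alone.

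On the TMM scale, mean levels were lowest in Selp high paHSCs for all 10 members, but no member was called by edgeR in any comparison. Against Selp low paHSCs, all 9 members tested had a negative log2 fold change (range -2.32 to -0.29, median -1.12), where 55.2% of the 20370 genes tested were lower and the median of all genes was -0.11. Of those 9, 6 had a log2 fold change of -1 or less (18.7% of all genes) and 3, *Egr2*, *Egr3* and *Klf4*, an unadjusted p under 0.05 in that direction (5.67% of all genes). The count of called members was 0, as it was for all genes of this comparison (0.0%). DESeq2 called *Egr3* alone of the members, with 1.53% of its 25807 genes called lower. *Nr4a3* did not pass the filter on low counts here. Left out in turn, Selp low replicate 1 and Selp high replicate 2 each left 7 of the 9 members lower, Selp low replicate 3 left 8, and each of the other 3 libraries left 9.

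Against yHSCs, *Nr4a3* passed the filter on low counts through the yHSC libraries alone, and is left out of the counts of lower members in this comparison. The other 9 members all had a negative log2 fold change in Selp high paHSCs, from -3.32 to -0.54. Among all 20017 genes tested 52.2% were lower, and their median was -0.03. The same 9 were also lower with any of the 6 libraries left out. Among them, 8 had a log2 fold change of -1 or less (12.7% of all genes). An unadjusted p under 0.05 was found for 5, *Egr1*, *Nr4a1*, *Nr4a2*, *Klf4* and *Klf6* (3.11% of all genes). Of the same 9, the libraries did not overlap for *Egr1* and *Nr4a1*, as for 5.28% of all genes in this direction. The edgeR test called 0 members and 0.165% of all genes, and DESeq2 called *Nr4a1* and *Nr4a3*, with 1.03% of 21436 genes called lower. In the comparison of Selp low paHSCs with yHSCs 5 members were higher and 5 lower (44.9% of 20437 genes were lower), with log2 fold changes from -2.12 to 0.74 and only *Nr4a1* under an unadjusted p of 0.05 (4.17% of all genes in that direction). *Nr4a1* and *Nr4a3* had a log2 fold change of -1 or less (6.78% of all genes), and the libraries of 0 members lay apart in the lower direction (6.76% of all genes). No member and 0.0% of all genes were called by edgeR there, and DESeq2 called 0 members and 0.965% of 17508 genes in the lower direction. The comparisons share their groups, so they are not independent of each other, and the differences between their fold changes were not tested.

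**Figure D2:**
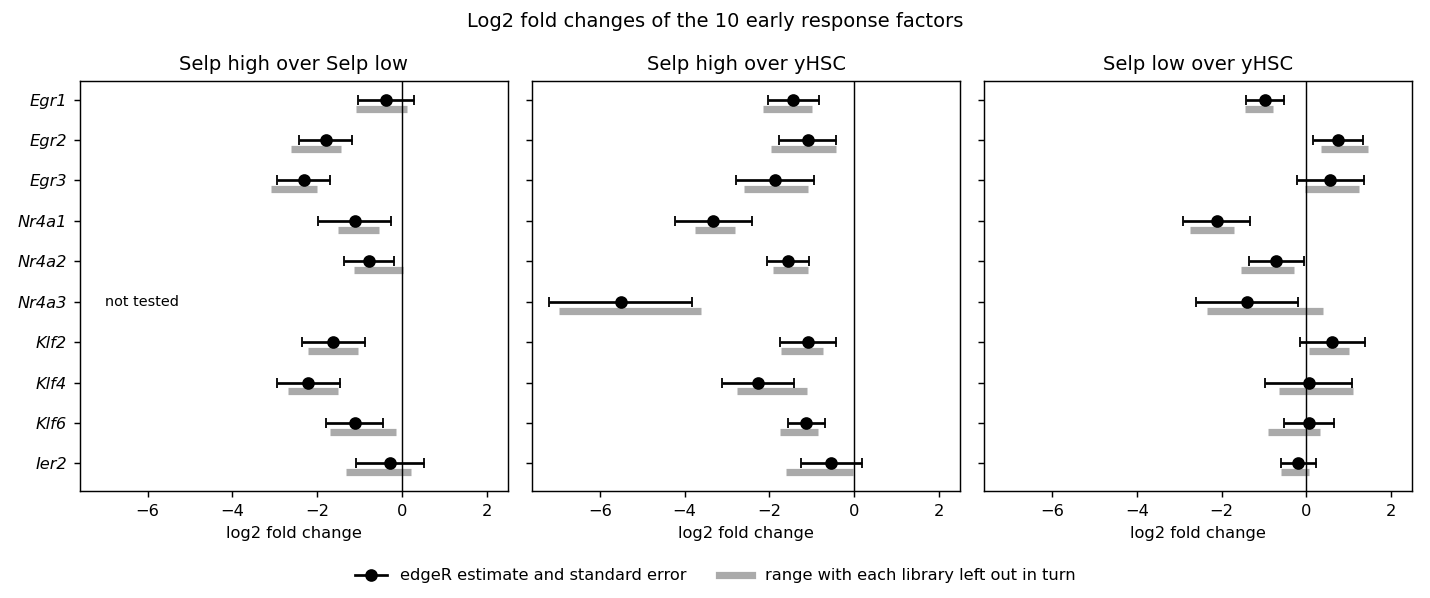
Log2 fold change of each member in the 3 comparisons, as edgeR's estimate with its standard error (points and black bars) and the range when each library is left out in turn (grey bars). All estimates lie below 0 in the 2 comparisons of Selp high paHSCs, and the grey ranges of Egr1, Nr4a2 and Ier2 cross 0 against Selp low paHSCs.

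The largest difference from yHSCs among the abundant members was that of *Nr4a1* (Nur77, an orphan receptor induced by antigen and growth factor signals; mm39 chr15:101152150-101172676). Its level was 543.5, 3045 and 2426 CPM in the yHSC libraries, 466.8, 131.0 and 740.1 CPM in Selp low and 277.2, 35.4 and 304.5 CPM in Selp high paHSCs. Every Selp high library lay below every yHSC library, yHSC replicate 1 lay within the Selp low range, and Selp high replicate 2 stood far below the other 8. The group means were 2005 ± 1303, 446.0 ± 305.1 and 205.7 ± 148.1 CPM (SD, n = 3). The log2 fold change of Selp high paHSCs over yHSCs was -3.32 ± 0.91 (SE), or 9.95-fold lower, with an adjusted p of 0.332 by edgeR and 0.00147 by DESeq2. The edgeR fit without a filter also called it (0.000308, with 1.14% of all genes called), as did limma with quality weights (0.0447, with 1.37% called). Over the 20 alternative fits that adjusted p ranged from 3.81e-05 to 0.998, and without yHSC replicate 2 DESeq2 gave -2.81 with an adjusted p of 0.0673, which is no call. For Selp low paHSCs over yHSCs it was -2.12 ± 0.79 (edgeR adjusted p 0.385), and for Selp high over Selp low paHSCs -1.12 ± 0.87 (adjusted p 0.631).

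*Nr4a2* (Nurr1; mm39 chr2:56996842-57014015, minus strand) measured 14.7, 53.05 and 37.1 CPM in yHSCs, 16.3, 7.51 and 38.5 CPM in Selp low and 10.2, 10.2 and 15.97 CPM in Selp high paHSCs. The Selp high libraries were close together at the lower end, and the highest of them exceeded yHSC replicate 1 by little. Over yHSCs the log2 fold change was -1.56 ± 0.49 (SE, edgeR adjusted p 0.421), and that over Selp low paHSCs, -0.78 ± 0.59, became 0.02 without Selp low replicate 3.

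*Nr4a3* (Nor1; mm39 chr4:48045153-48086447), the scarcest member, was counted 9, 212 and 30 times in the yHSC libraries, 17, 21 and 6 times in Selp low and 1, 4 and 0 times in Selp high libraries. All Selp high libraries lay below all others, and 1 yHSC library held most of the yHSC counts. In CPM these were 0.305, 4.91 and 0.820, then 0.557, 1.38 and 0.225, then 0.0258, 0.0986 and 0.0, and 3 counts, taken as the upper limit of a count of 0, correspond to 0.0695 to 0.198 CPM over the 9 libraries. The log2 fold change over yHSCs, -5.51 ± 1.69 (SE), rests on 5 counts against 251, with an adjusted p of 0.403 by edgeR and 0.00604 by DESeq2. DESeq2's estimate over Selp low paHSCs, from 5 against 44 counts, was -4.10 with an adjusted p of 0.0909. Without yHSC replicate 2, DESeq2 no longer called *Nr4a3* over yHSCs, and the edgeR value for Selp low paHSCs over yHSCs went from -1.40 to 0.38.

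*Egr1* (mm39 chr18:34992876-34998037), the abundant Egr gene, whose product is known for holding HSCs in quiescence and in the niche, had its highest mean in yHSCs. Its level was 1547, 2753 and 2591 CPM in yHSCs, 1711, 704.4 and 929.5 CPM in Selp low and 1532, 249.0 and 813.4 CPM in Selp high paHSCs. Replicate 1 of each paHSC fraction came close to the lowest yHSC library, Selp high without overlap and Selp low with it. The log2 fold change over yHSCs was -1.44 ± 0.60 (SE) in Selp high paHSCs (edgeR adjusted p 0.643) and -0.98 ± 0.44 in Selp low paHSCs (adjusted p 0.465). Between the fractions it was -0.38 ± 0.67, and it became 0.07 without Selp high replicate 2 and 0.12 without Selp low replicate 1.

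*Egr2* and *Egr3*, which act in lymphocyte development and tolerance, showed another order on the TMM scale, with the highest means in Selp low paHSCs. With counts scaled by library totals alone, the *Egr3* mean was highest in yHSCs (8.28 CPM, against 7.68 in Selp low paHSCs). That of *Egr2* stayed highest in Selp low paHSCs (13.02 CPM, against 11.87 in yHSCs). Without yHSC replicate 1, the edgeR log2 fold change of *Egr3* in Selp low paHSCs over yHSCs was -0.03. *Egr3* (mm39 chr14:70314652-70320063) measured 1.05, 12.6 and 7.52 CPM in yHSCs, 9.87, 13.25 and 6.48 CPM in Selp low and 0.981, 1.36 and 3.61 CPM in Selp high paHSCs. The fractions did not overlap, as was true of 10.7% of genes in this direction, and the yHSC libraries spanned both. Between the fractions the log2 fold change was -2.32 ± 0.63 (SE), 5.01-fold lower in Selp high paHSCs, with an adjusted p of 0.338 by edgeR and 0.0208 by DESeq2, over a range of 0.000485 to 0.882 in 20 alternatives. DESeq2's call of *Egr3* was lost without Selp high replicate 1 (-2.0, adjusted p 0.0876), Selp low replicate 1 (-2.35, 0.0703) or Selp low replicate 2 (-2.08, 0.28), with log2 fold changes near the -2.35 of all libraries.

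*Egr2* (mm39 chr10:67371305-67378018) measured 7.52, 5.10 and 18.9 CPM in yHSCs, 17.5, 23.7 and 9.07 CPM in Selp low and 9.14, 2.88 and 2.58 CPM in Selp high paHSCs. The highest Selp high library just exceeded the lowest Selp low library, and the other 2 Selp high libraries lay below all 7 remaining ones. Its log2 fold change was -1.80 ± 0.63 (SE) between the fractions (edgeR adjusted p 0.351) and 0.74 ± 0.59 for Selp low paHSCs over yHSCs (adjusted p 0.738). The 2 Selp low libraries with the higher *Egr2* and *Egr3* levels, replicates 1 and 2, were also those with 5227 and 7395 CPM of B cell markers, and the part of these cells in the result was not tested.

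*Klf2*, a factor of lymphocyte and endothelial quiescence that drives the trafficking genes *S1pr1* and *Ccr7* (mm39 chr8:73072877-73075500), measured 91.1, 359.2 and 441.3 CPM in yHSCs, 690.4, 476.7 and 112.6 CPM in Selp low and 238.8, 62.0 and 121.3 CPM in Selp high paHSCs. All 3 groups overlapped, and on the TMM scale Selp low replicates 1 and 2 were the highest of the 9 libraries. Between the fractions the value was -1.62 ± 0.74 (SE, edgeR adjusted p 0.431), and that over yHSCs was -1.09 ± 0.65 for Selp high and 0.61 ± 0.77 for Selp low paHSCs. The same 2 Selp low libraries carried 347.3 and 253.7 CPM of *Ccr7* against 0.862 to 39.3 elsewhere, as well as the B cell markers, whose part was not tested.

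*Klf4*, a factor of myeloid differentiation and of pluripotency, measured 2.24, 35.1 and 14.02 CPM in yHSCs, 29.3, 17.4 and 3.30 CPM in Selp low and 4.23, 3.21 and 3.49 CPM in Selp high paHSCs (mm39 chr4:55527143-55532466, minus strand). The Selp high libraries were close to each other, and yHSC replicate 1 and Selp low replicate 3 were as low as they were. These 2 libraries held the highest neutrophil marker sums, 64913 and 212662 CPM, and the part of those cells was not tested. The log2 fold change was -2.21 ± 0.74 (SE) over Selp low paHSCs and -2.27 ± 0.85 over yHSCs, with edgeR adjusted p of 0.338 and 0.573. Without Selp low replicate 3 DESeq2 gave -2.70 with an adjusted p of 5.88e-06 over Selp low paHSCs, and without yHSC replicate 1 it gave -2.77 with 5.08e-05 over yHSCs, while with all libraries its adjusted p was 0.0831 and 0.114. Other omissions moved it the other way, to -1.52 without Selp low replicate 1 (adjusted p 0.371 by DESeq2) over Selp low paHSCs and to -1.10 without yHSC replicate 2 (adjusted p 0.911) over yHSCs.

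*Klf6* (mm39 chr13:5911481-5920393), a widely expressed factor, measured 664.9, 543.3 and 996.6 CPM in yHSCs, 1424, 393.4 and 374.2 CPM in Selp low and 569.8, 196.2 and 252.5 CPM in Selp high paHSCs. Selp low replicate 1 stood far above the rest, and Selp high replicate 1 reached into the range of yHSCs. Its log2 fold change was -1.13 ± 0.44 (SE) over yHSCs (edgeR adjusted p 0.595) and -1.12 ± 0.67 over Selp low paHSCs (adjusted p 0.539), and the latter was -0.15 without Selp low replicate 1. *Ier2* (mm39 chr8:85387960-85389483, minus strand) had the smallest log2 fold changes of the members tested in both comparisons of Selp high paHSCs. It measured 1049, 1484 and 1659 CPM in yHSCs, 1740, 661.8 and 1156 CPM in Selp low and 1993, 181.0 and 769.0 CPM in Selp high paHSCs, so that the Selp high group held both the highest and the lowest library. Its log2 fold change was -0.54 ± 0.72 (SE) over yHSCs and -0.29 ± 0.80 over Selp low paHSCs, and with counts scaled by library totals alone the mean of Selp high paHSCs (1069 CPM) was above that of Selp low paHSCs (1053).

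Libraries of the Selp low and Selp high fractions with the same replicate number deviated together across genes, so the fractions were also compared within numbers. The labels do not say that equal numbers share animals. In the libraries numbered 1, 9 of 10 members were lower in the Selp high fraction, with *Ier2* higher and a median ratio of 0.461. In those numbered 2, 9 were lower, with *Nr4a2* higher and a median ratio of 0.227, and in those numbered 3, 8 were lower, with *Klf2* and *Klf4* higher and a median ratio of 0.611. The lower members include *Nr4a3* within each number, on few reads. The share of all genes lower and their median ratio within each number were not computed. The counts and ratios of members therefore cannot be set against those of all genes. With the replicate number as a block, DESeq2 called 6 members lower in the Selp high fraction, where 5.12% of 22765 genes were called lower, and edgeR called 0 members and 0.0442% of genes. The 6 were *Egr2* (log2 fold change -1.93, adjusted p 0.00274), *Egr3* (-2.53, 0.00119), *Nr4a1* (-1.32, 0.00158), *Nr4a3* (-4.45, 0.0469), *Klf2* (-1.47, 0.0364) and *Klf4* (-1.79, 0.0265), all by DESeq2. Of these, *Nr4a3* did not pass edgeR's filter on low counts between the fractions, and its call rests on 5 against 44 counts.

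Most members varied in the same direction across the 9 libraries. Of 45 pairs of members, 44 had a positive Pearson correlation of log2 CPM, with a median r of 0.51, from -0.04 (*Egr2* and *Nr4a2*) to 0.92 (*Egr1* and *Ier2*). After the group means were removed, 35 pairs were positive and 10 negative, with a median r of 0.39, from -0.44 (*Egr2* and *Nr4a2*) to 0.98 (*Egr1* and *Ier2*). These points share library depth and makeup, and are given as a description. Selp high replicate 2 was the lowest of the 9 libraries for 5 members and yHSC replicate 2 the highest for 5. Summed over the 10 members, levels ran from 741.3 CPM in Selp high replicate 2 to 8296 CPM in yHSC replicate 2.

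**Figure D3:**
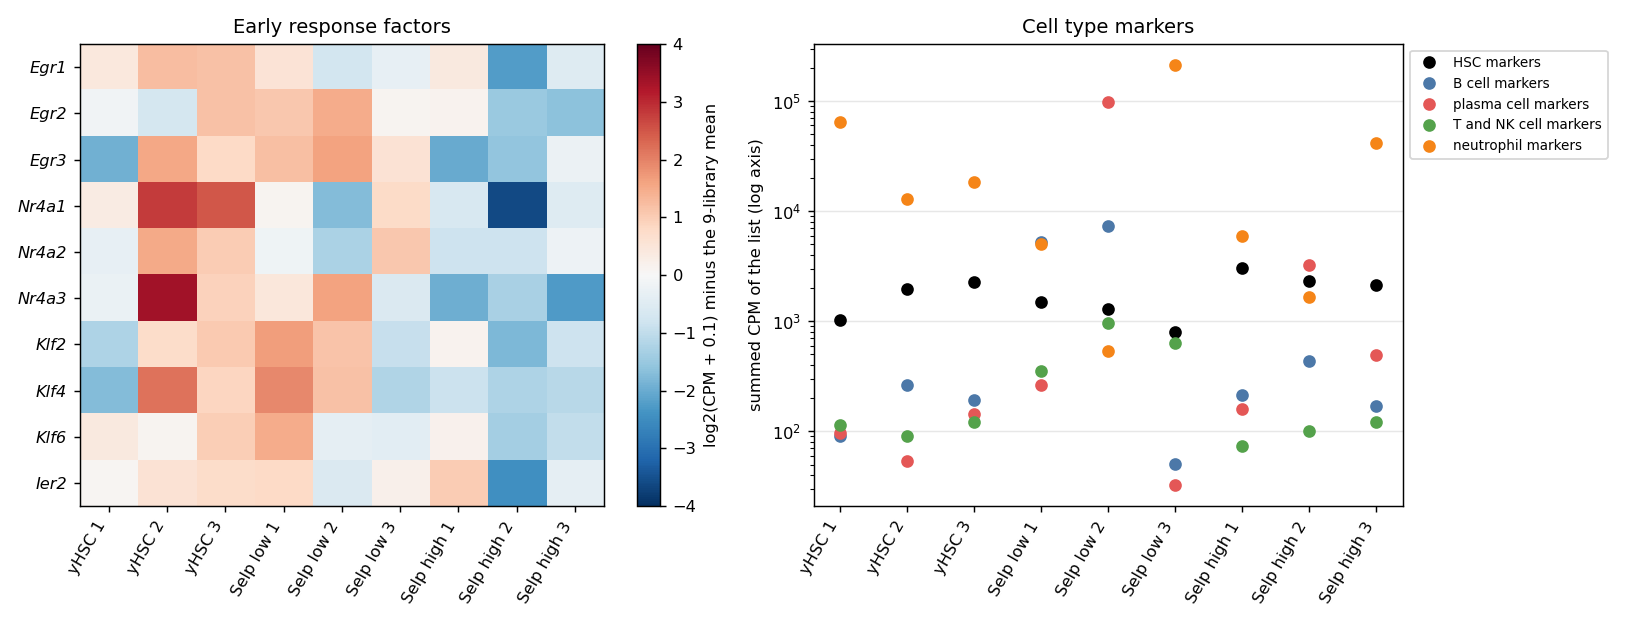
Left, log2(CPM + 0.1) of each member minus its mean over the 9 libraries, as a colour for each library; right, summed CPM of 5 marker lists in the same libraries on a log axis. Selp high replicate 2 is low for most members and yHSC replicates 2 and 3 are high, while B cell markers peak in Selp low replicates 1 and 2, plasma cell markers in replicate 2 and neutrophil markers in replicate 3.

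The 5 protein-coding genes most like the mean standardized level of the members were taken from 15758 compared over the 9 libraries. They were *Clk4*, a kinase of splicing factors (Pearson r 0.966, Spearman rho 0.867), *Zdhhc20*, a palmitoyltransferase (0.960 and 0.967), *Zfp36*, the mRNA-destabilizing protein tristetraprolin (0.958 and 0.850), *Mutyh*, a DNA glycosylase (0.943 and 0.967), and *Nxf1*, the nuclear mRNA export factor (0.940 and 0.867). *Zfp36* is itself an immediate early gene. Its level was 1421, 2358 and 2598 CPM in yHSCs, 3205, 1561 and 1339 CPM in Selp low and 1640, 546.6 and 1021 CPM in Selp high paHSCs, with Selp high replicate 2 again the lowest library.

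Other immediate early genes also had mostly negative log2 fold changes in the comparisons of Selp high paHSCs, with few calls where the replicate number was not a block. Of the 7 AP-1 genes, 6 had a lower estimate in the Selp high than the Selp low fraction (median log2 fold change -1.06). All 7 were below yHSCs (median -1.32). Of all genes tested, 55.2% and 52.2% were lower in these comparisons. Over yHSCs DESeq2 called *Jun* (-1.34, adjusted p 0.038) and *Fosl2* (-2.36, adjusted p 0.031), beside 1.03% of all genes called lower. The edgeR test called neither (*Jun* -1.32 ± 0.35, adjusted p 0.313). *Fosb* measured 67.7, 55.96 and 14.65 CPM in Selp low libraries and 12.1, 12.6 and 13.2 CPM in Selp high libraries. *Fosb* did not overlap between the fractions, as for 10.7% of genes tested in this direction. Its log2 fold change was -1.88 ± 0.55 (SE, edgeR adjusted p 0.338). *Junb* was lower by a log2 fold change of -1.31 ± 0.65, and *Fos* by -1.06 ± 1.13, with adjusted p of 0.463 and 0.736 by edgeR. With the replicate number as a block, DESeq2 called 3 AP-1 genes lower in the Selp high than the Selp low fraction, *Jun* (-1.22, adjusted p 0.00628), *Junb* (-1.35, 0.00909) and *Fosb* (-1.64, 0.0107), beside 5.12% of all genes, and edgeR called none of them (adjusted p 0.178 to 0.204).

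Among 32 further immediate early genes, 27 had a lower estimate in the Selp high than the Selp low fraction (median -0.60), 31 were below yHSCs (median -0.85), and 22 were lower in Selp low paHSCs than in yHSCs (median -0.29, where the median of all genes was 0.08). Of all genes tested, 55.2%, 52.2% and 44.9% were lower in these comparisons, in the same order. DESeq2 called *Zfp36l1* and *Sik1* in the first of these, beside 1.53% of all genes called lower. In the second it called *Btg2*, *Sik1* and *Csrnp1*, beside 1.03% called lower, and all these calls were lower in Selp high paHSCs. *Btg2*, an antiproliferative gene, measured 528.3, 476.1 and 901.1 CPM in yHSCs, 711.3, 383.6 and 485.7 CPM in Selp low and 286.0, 85.1 and 189.9 CPM in Selp high paHSCs. Its Selp high libraries overlapped with neither group, as for 10.7% of genes tested below Selp low paHSCs and 5.28% below yHSCs. The log2 fold change of *Btg2* was -1.5 ± 0.49 (SE) over Selp low paHSCs and -1.78 ± 0.46 over yHSCs. Adjusted p was 0.338 and 0.297 by edgeR, and 0.165 and 0.013 by DESeq2. *Zfp36l1*, an mRNA decay factor, measured 134.0, 327.0 and 30.7 CPM in Selp low libraries against 6.58, 32.9 and 19.7 in Selp high libraries, with its high values in the Selp low libraries rich in B cell markers. With the block, DESeq2 called 11 of the 32 lower between the fractions, beside 5.12% of all genes. The 11 included *Btg2* (-1.62, adjusted p 1.18e-05), *Sik1* (-2.65, 1.23e-07) and *Csrnp1* (-1.69, 1.96e-05). *Ier3* and *Atf3* had log2 fold changes of -0.85 and -0.16 between the fractions, *Myc* had 0.37, and *Ccn2* had 2.45 from 155 against 19 counts, with edgeR adjusted p between 0.606 and 0.96. With limma and quality weights *Ccn2* turned to -1.63 and *Myc* to -0.16.

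**Figure D4:**
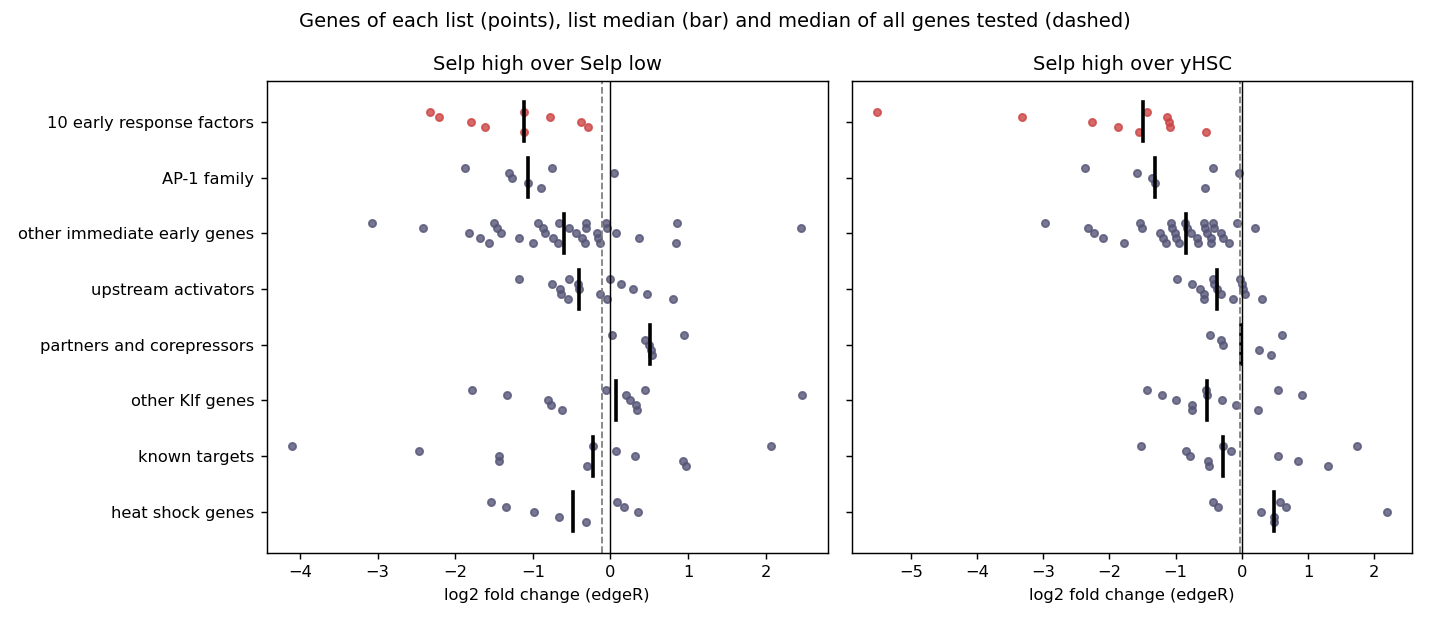
Log2 fold change by edgeR of every tested gene of each list (points), the list's median (black bar) and the median of all genes tested (dashed line) for Selp high paHSCs over Selp low paHSCs and over yHSCs. The 10 early response factors, AP-1 genes and other immediate early genes have medians of -1.12, -1.06 and -0.60 on the left. On the right the medians are -1.5, -1.32 and -0.85, and the -1.5 includes Nr4a3, which passed the filter through the yHSC libraries alone.

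The factors that switch these genes on were examined as a further list. Of 15 upstream activators, 10 had a negative log2 fold change between the fractions (median -0.40) and 12 over yHSCs (median -0.38), with none called by edgeR or DESeq2 and unadjusted p under 0.05 for 1 and 0 of them. Of all genes tested, 55.2% and 52.2% were lower in these comparisons, and 5.67% and 3.11% were lower with an unadjusted p under 0.05. *Srf*, serum response factor, had a log2 fold change of 0.29 ± 0.53 (SE) between the fractions and 0.05 ± 0.55 over yHSCs. *Crem*, a CREB relative that is itself induced by cAMP, had -1.18 ± 0.44 between the fractions (edgeR adjusted p 0.360), and *Crtc1*, a CREB coactivator, had 0.80 ± 0.35 (adjusted p 0.406). All 6 partners and corepressors had positive values between the fractions, with a median of 0.51 and none called by edgeR or by DESeq2 without a block and 0 with an unadjusted p under 0.05. Of 20370 genes tested, 9120 were higher there. With limma *Nab2* was at -0.01, and DESeq2 with the block called *Ctbp2* higher (1.16, adjusted p 0.00983), beside 986 of 22765 genes called higher. *Nab1*, a corepressor of Egr proteins, had 0.50 ± 0.29 between the fractions and 0.60 ± 0.26 over yHSCs, *Nab2* 0.02 ± 0.34 and -0.32 ± 0.48, *Ctbp2* 0.95 ± 0.62 and 0.44 ± 0.49, and *Rxra*, the partner receptor of Nr4a1 and Nr4a2, 0.53 ± 0.57 and -0.48 ± 0.58.

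The other Klf genes did not share a direction. Of 12 that were tested out of 14, 6 had negative and 6 positive values between the fractions (median 0.07), and 9 were negative over yHSCs (median -0.53). Of all genes tested, 55.2% and 52.2% were lower in these comparisons. *Klf1*, the erythroid factor, measured 64.0, 95.7 and 118.3 CPM in Selp low and 23.1, 20.2 and 38.1 CPM in Selp high libraries. *Klf1* did not overlap between the fractions, as for 10.7% of genes tested in this direction. Its log2 fold change was -1.78 ± 0.36 (SE), with an adjusted p of 0.338 by edgeR and 0.0191 by DESeq2, and erythroid markers summed to 1407 to 3171 CPM in those Selp low and 783.8 to 1202 CPM in those Selp high libraries, whose part was not tested. *Klf13* was called lower by DESeq2 in the same comparison and *Klf11* in that with yHSCs, beside 1.53% and 1.03% of all genes. *Klf3*, *Klf7* and *Klf10* had log2 fold changes of -0.77, 0.20 and 0.34 between the fractions, and *Klf15*, which had the largest value of the list, 2.47 ± 1.66, was at 0 in 1 Selp high library and turned to -2.12 with limma.

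Of 11 genes known as targets of these factors, 6 had negative and 5 positive values between the fractions (median -0.23), and 7 were negative over yHSCs (median -0.28). Of all genes tested, 55.2% and 52.2% were lower in these comparisons. *Ccr7*, a chemokine receptor of lymphocytes, had a log2 fold change of -4.10 ± 1.58 (SE) between the fractions. It was called by DESeq2 (adjusted p 0.0223), beside 1.53% of all genes called lower, but not with the block (-2.88, adjusted p 0.244). Over yHSCs, DESeq2 called *S1pr1* lower (-1.52, adjusted p 0.0489) and the inhibitor *Cdkn1c* higher (1.72, adjusted p 0.0491) in Selp high paHSCs. Of 21436 genes, 221 were called lower and 375 higher in that fit. With the block DESeq2 called both in the same directions over Selp low paHSCs (-1.13, adjusted p 0.0359, and 2.03, adjusted p 2.63e-06). There 1165 of 22765 genes were called lower and 986 higher. *Cdkn1a*, the cell cycle inhibitor p21, had -0.30 ± 0.66 between the fractions and -0.79 ± 0.47 over yHSCs, with edgeR adjusted p of 0.885 and 0.846, and the first turned to 0.21 with limma. Heat shock genes, another inducible class, had mixed directions. Of 8 genes, 5 had negative values between the fractions (median -0.49), but 6 had positive ones over yHSCs (median 0.49), and their summed level was 2271 to 3086 CPM in yHSCs, 2520 to 4354 in Selp low and 3411 to 3729 in Selp high paHSCs. *Hspa1a* and *Hspa1b*, near-identical genes whose reads could be split between them, had log2 fold changes of -1.54 ± 0.83 and -1.34 ± 1.19 between the fractions and -0.36 ± 0.76 and 0.66 ± 0.99 over yHSCs. For *Hspa1b* the latter turned to -0.73 with limma. DESeq2 with the block called *Hspa1b* lower between the fractions (-1.65, adjusted p 2.09e-05), beside 5.12% of all genes called lower.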

How the data were processed

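Total RNA of sorted HSCs was made into cDNA with a low-input SMARTer kit and fragmented by a transposase-based library kit. Per the labels, the submitters' processing notes name CASAVA 1.8, HISAT2 2.2.1, featureCounts 2.0.6, DESeq2 1.42.0 and build mm39. The authors deposited whole-number counts, not normalized, for each gene beside its length. Annotation release, strand setting and multimapping rule were not given in the sources used here, so reads of a gene and an antisense neighbour cannot be told apart. Unused columns of sample values numbered 0.

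Counts were analysed in R 4.3.3 with edgeR 4.0.16 (TMM factors, filterByExpr, quasi-likelihood test with the legacy setting, each pair of groups alone), limma 3.58.1 and DESeq2 1.42.0, with Benjamini-Hochberg adjustment over all genes tested. Figures were drawn with matplotlib 3.10.9. Depth was 24866975 to 35375310 counts per library. Limits at 3 counts cover counting error only. With 3 libraries against 3 an exact permutation test cannot go below p = 0.1, so none was used. The members and gene lists were chosen with earlier results of these data known. Named genes were the members, *Selp*, 18 listed genes, the 2 largest changes of each list between the fractions, and the 5 genes most like the members. *Sik1*, *Csrnp1*, *Fosl2*, *Klf11*, *Klf13*, *S1pr1* and *Cdkn1c* were named after their values were seen, as the genes behind small counts of calls. The result of 1 gene that the rule named is not reported here.

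Residuals of libraries with the same replicate number correlated by 0.178, 0.2765 and 0.303 between the paHSC fractions, all above the 0.1 taken as pairing, and by -0.417 to 0.0917 with yHSCs. Between the fractions, libraries of different numbers correlated by -0.2445 to 0.0252. Selp high replicate 1 correlated by 0.449 with yHSC replicate 2, and Selp high replicate 2 by 0.406 with yHSC replicate 1. Those pairs are of different ages, so a value above 0.1 does not show shared animals, and the labels give no pairing. On simulated counts with 200 genes shifted by 3 on the log2 scale, edgeR recovered 61.0% for Selp high over Selp low paHSCs with 5 unchanged genes called, and DESeq2 87.5% with 126. Promoter sequences came from RefSeq (GRCm38.p6), and no coordinates were converted between builds. Alternatives were DESeq2, RLE factors, no filter, limma-voom with quality weights, a fit of all 9 libraries, a replicate block and each library left out. The newer edgeR setting and DESeq2 with each library left out were added after seeing the data.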

Additional observations from a re-analysis of the deposited data

How the results depend on the processing

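The edgeR test called 0 members in each comparison, also with RLE factors, a fit of all 9 libraries, the newer setting and any of the libraries left out. For Selp high over Selp low paHSCs DESeq2 called 1 member, and 6 with the replicate block that the paired numbers allow; for Selp high paHSCs over yHSCs it called *Nr4a1* and *Nr4a3*, and with the block *Nr4a3*, *Egr1* and *Klf6* but not *Nr4a1* (-3.35, adjusted p 0.194), though the numbers did not pair these samples, while the edgeR fit without a filter and limma with quality weights called 1 each. DESeq2 with a library left out called 0 to 3 members in the first, 0 to 5 in the second (0 without yHSC replicate 2, 4 without Selp high replicate 1 and 5 without yHSC replicate 1) and 0 to 1 in Selp low paHSCs over yHSCs. The share of all genes called in those DESeq2 fits is not given here, so these counts of members cannot be set against it. The edgeR block called 0 members.

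With a library left out, the log2 fold change over Selp low paHSCs ran from -1.08 to 0.12 for *Egr1*, -1.18 to 0.02 for *Nr4a2* and -1.33 to 0.25 for *Ier2*. For Selp low paHSCs over yHSCs it ran from -0.03 to 1.25 for *Egr3*, -2.37 to 0.38 for *Nr4a3*, -0.70 to 1.09 for *Klf4*, -0.92 to 0.34 for *Klf6* and -0.61 to 0.06 for *Ier2*. There *Klf4* was -0.01 with DESeq2, -0.13 with its block, -0.04 in the fit of all libraries, -0.08 with the edgeR block and -0.09 without a filter, and *Klf6* was -0.27 with the DESeq2 block, -0.01 in the fit of all libraries, -0.22 with the edgeR block and -0.04 without a filter; the causes were not tested. In the comparisons of Selp high paHSCs no alternative test that kept all libraries turned the direction of a member's log2 fold change. With counts scaled by library totals alone, the *Ier2* mean was above that of Selp low paHSCs (1069 against 1053 CPM).

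Over all genes edgeR called 0, 33 and 0 in the 3 comparisons, DESeq2 589, 596 and 517 (2151, 641 and 417 with the block), the fit without a filter 193, 472 and 365, limma 0, 275 and 431, the edgeR block 9, 0 and 0, the newer setting 0, 92 and 0, and the fit of all libraries 0, 19 and 0. Counts of a few reads limit *Nr4a3*.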
